A study of Mus musculus with 4 samples.

Results

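The cyclin-dependent kinase (CDK) inhibitors were examined in breast cancer cells derived from tumors of MMTV-Neu mice, together with Mtap, the gene that lies next to Cdkn2a and Cdkn2b on mouse chromosome 4. The members were the 4 INK4 genes (Cdkn2a, Cdkn2b, Cdkn2c and Cdkn2d), the 3 CIP/KIP genes (Cdkn1a, Cdkn1b and Cdkn1c) and Mtap. They were taken as every probe whose gene name in the array files is one of these 8 names, which gave 12 of 39429 probes, and the brightest probe of a gene over the 4 arrays stood for it. Among them, 11 probes of 7 genes passed the filter on dim signal and were among the 27229 probes tested. The members were chosen by the measured log2 differences of Cdkn2b and Mtap between the genotypes, which were already known, together with their family and place, so the genotype differences of the members are given as a description, without p-values.

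In MMTV-Neu mice a mammary tumor virus promoter drives Neu, the rodent form of the receptor kinase Her2, in mammary epithelium. The study asked which genes differ between Her2 positive cells with and without Pak1, a kinase that acts downstream of the small GTPases Rac and Cdc42. The 2 samples labelled Pak1-/- came from tumors of Pak1 knockout MMTV-Neu mice, and the 2 labelled Pak1+/+ from tumors of MMTV-Neu mice that carry wild type Pak1. All 4 cultures were kept in low calcium medium with 5% horse serum, starved of serum for 3 h and given EGF for 15 min before RNA was taken, and no unstimulated cells are among them. The series design gives 2 tumors to each group, while the methods speak of cell lines. The sources used here do not tie a sample to a tumor or give the age of the mice, so the spread between the samples of a group may be partly technical. Tumor or line of origin may differ together with genotype, and the 2 cannot be told apart here.

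CDK inhibitors hold back the kinases that drive cells from G1 into S phase. The INK4 proteins bind Cdk4 and Cdk6 and keep D-type cyclins from activating them, whereas the CIP/KIP proteins act on a wider range of cyclin-CDK complexes, above all those with Cdk2. The Cdkn2a gene also encodes p19Arf, read in another frame, which restrains Mdm2 and so stabilizes p53. Cdkn2a and Cdkn2b are induced by oncogene activity and by prolonged culture and are frequently lost in tumors and in cell lines, often together with Mtap, which encodes an enzyme of methionine salvage.

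The array reads Cdkn2a and Cdkn2b with 2 probes each, all on the reverse strand of chromosome 4 (mm9) within 32.4 kb. The Cdkn2a probes A_55_P2008437 (chr4:88920405-88920464) and A_55_P2008438 (chr4:88920543-88920602) list the same 2 transcripts, so that the Ink4a and Arf transcripts of this gene cannot be told apart. The Cdkn2b probes A_55_P1988183 (chr4:88952276-88952335) and A_55_P1979526 (chr4:88952720-88952779) begin 31.7 kb beyond them. The single Mtap probe, A_51_P341349 (chr4:88826213-88826272), is on the forward strand, 94.1 kb short of Cdkn2a. The first 30 of the 60 bases of these probes are shown because they carry the main contrast, and each is a sequence of its own. The longest run common to a Cdkn2a and a Cdkn2b probe was 6 bases.
Cdkn2a, A_55_P2008437: ggcatgagaaactgagcgaaggcggccgcg
Cdkn2a, A_55_P2008438: cttctagcgatgctagcgtgtctagcatgt
Cdkn2b, A_55_P1988183: ccagtgatgaattgtagtggtagcaggtta
Cdkn2b, A_55_P1979526: ttgagcctcaccttgaagccaaggggatca
Mtap, A_51_P341349: gccggtgtttaatgcaagccagtgtgactc

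Before the members, the targeted gene and the arrays were checked. The one Pak1 probe, A_52_P663600, had normalized log2 intensities of 12.21 and 12.25 in the samples labelled Pak1-/-, against 12.04 and 12.04 where the label was Pak1+/+. The difference of 0.19 (SE 0.07, limma adjusted p = 0.070) was not a decrease, and it passed the threshold as an increase, at 0.27, with cyclic loess normalization. Whether this probe lies outside the deleted part is not given in the sources used here. The samples are therefore called by their labels. The median spot intensity was 322 to 331 over a local background of 39.0 to 42.0, and 62.2% to 70.4% of probes were well above background. Arrays of one group correlated with r = 0.997 across probes and arrays of different groups with r of 0.954 to 0.959. The groups also lay at different positions of the slide, which cannot be told apart from genotype. Such broad separation left 51.9% of the tested probes past the threshold of adjusted p under 0.05, of which those lower in the Pak1-/- cells made up 28.6% of all tested and those higher 23.3%. It is against these shares that every count below has to be read.

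Signal from the Cdkn2a and Cdkn2b probes was found only in the Pak1+/+ cells. All 4 probes were well above background on both Pak1+/+ arrays and on neither Pak1-/- array. The other inhibitors were measured in both groups or, for Cdkn1c, on 1 array. Mtap was bright on all 4 arrays and higher in the Pak1-/- cells. Of the 7 genes tested, 4 were past the threshold as lower (Cdkn2a, Cdkn2b, Cdkn2d and Cdkn1b), 1 as higher (Mtap) and 2 were not past it (Cdkn2c and Cdkn1a), while Cdkn1c was not tested. In all 7 the arrays of the groups did not overlap, which was also so for 78.2% of all tested probes. Past the threshold with a change of at least 2-fold were 3 members, Cdkn2a, Cdkn2b and Mtap, and 12.5% of all tested probes. Since the choice of members used this contrast, nothing is read from these counts.

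**Figure D1:**
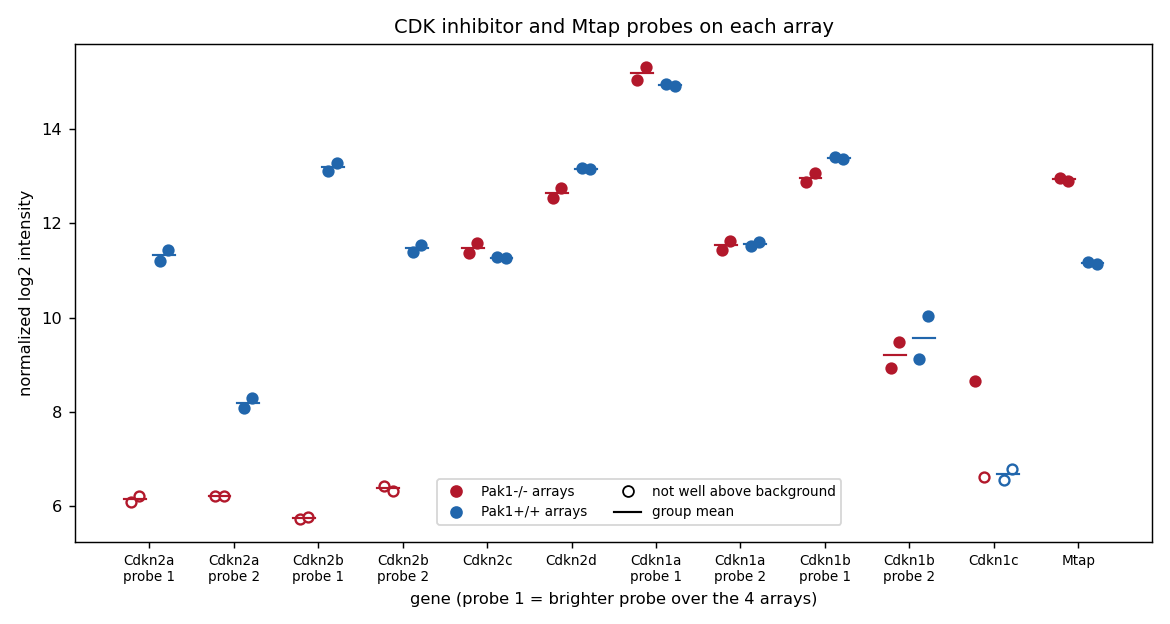
Normalized log2 intensity (vertical axis) of the 12 probes of the CDK inhibitors and Mtap on each of the 2 Pak1-/- arrays (red) and 2 Pak1+/+ arrays (blue). Horizontal lines are group means, left out where only 1 array of a group was above background, and open points were not well above background. The Cdkn2a and Cdkn2b probes are open on both Pak1-/- arrays, at 5.72 to 6.43, and filled on both Pak1+/+ arrays, at 8.07 to 13.28.

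Cdkn2b encodes p15Ink4b, the INK4 protein best known as a target of TGF-beta. Its brightest probe, A_55_P1988183, had log2 intensities of 5.72 and 5.76 in the Pak1-/- cells and 13.11 and 13.28 in the Pak1+/+ cells. The Pak1+/+ arrays were high and close to each other, and the Pak1-/- arrays lay at background. The group means were 5.74 ± 0.03 and 13.20 ± 0.12 (SD, n = 2), a difference of -7.45 (SE 0.09) on the log2 scale. Since the lower group holds no measured level, its ratio is a bound, and the probe was at least 95.5-fold lower in the Pak1-/- cells. The other probe, A_55_P1979526, gave 6.43 and 6.32 against 11.39 and 11.54, and was at least 28.8-fold lower. Both probes thus placed Cdkn2b at background in the same 2 samples.

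Cdkn2a encodes p16Ink4a and p19Arf. Its brightest probe, A_55_P2008437, had log2 intensities of 6.08 and 6.21 in the Pak1-/- cells and 11.20 and 11.44 in the Pak1+/+ cells. The group means were 6.14 ± 0.09 and 11.32 ± 0.17 (SD, n = 2), with a difference of -5.18 (SE 0.11). Again the Pak1-/- arrays lay at background, so their mean is no measured level and the ratio is a bound. The probe was at least 26.0-fold lower in the Pak1-/- cells. The dimmer probe, A_55_P2008438, begins only 138 bases further along and gave 6.21 and 6.22 against 8.07 and 8.29. It was at least 2.95-fold lower in the Pak1-/- cells. The direction was thus common to all 4 probes of Cdkn2a and Cdkn2b.

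The scanned intensities show the same without any normalization. The brightest Cdkn2b probe read 49.7 and 45.7 units on the Pak1-/- arrays and 9191 and 9743 on the Pak1+/+ arrays. The brightest Cdkn2a probe read 54.4 and 55.6 against 2394 and 2667. On each array the 153 negative control spots, which match no mouse transcript, had a median of 50.6 to 51.3 units and a 95th percentile of 70.7 to 87.6. All 4 Cdkn2a and Cdkn2b probes read between 45.7 and 66.3 on the Pak1-/- arrays, below the 95th percentile of the negative controls on the same array. In bulk RNA such as this, fewer cells that express a gene and less RNA of it per cell cannot be told apart, and an array that reads transcripts does not say whether the locus is present in the genome.

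**Figure D2:**
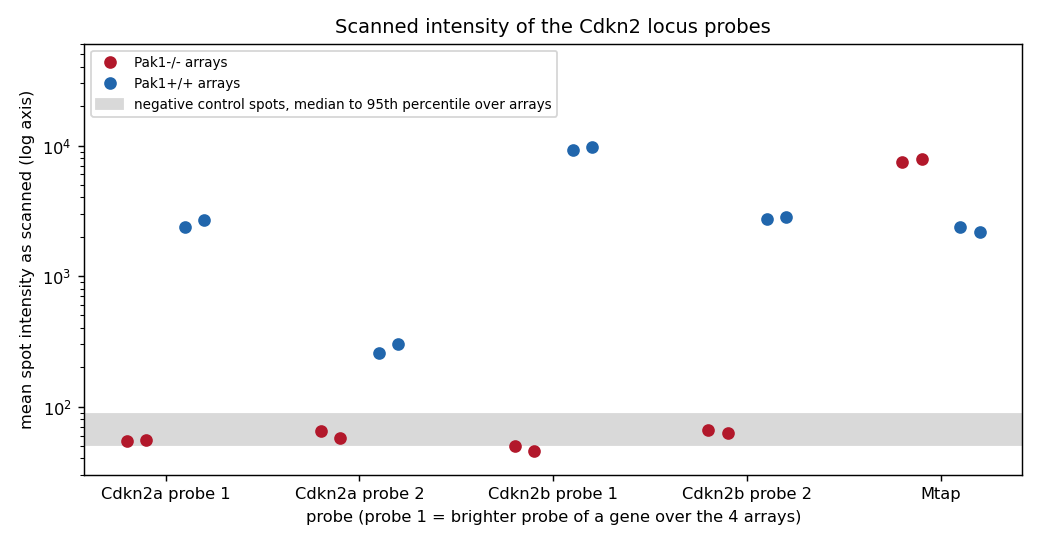
Scanned mean spot intensity (vertical log axis, before background correction and normalization) of the Cdkn2a, Cdkn2b and Mtap probes on the Pak1-/- arrays (red) and Pak1+/+ arrays (blue), 1 point an array. The grey band runs from the lowest median of the negative control spots, 50.6, to the highest 95th percentile, 87.6, and the Pak1-/- points of the 4 Cdkn2 probes lie in it or under it, while both Mtap groups lie far above.

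Mtap was measured 94.1 kb away and went the opposite way. The probe had log2 intensities of 12.96 and 12.91 in the Pak1-/- cells and 11.17 and 11.14 in the Pak1+/+ cells. Its group means were 12.93 ± 0.04 and 11.15 ± 0.02 (SD, n = 2), a difference of 1.78 (SE 0.07), or 3.43-fold. The scanned intensities of 7518 and 7940 against 2359 and 2164 placed the gene well above background in all 4 samples. Transcript of Mtap was thus present, at a higher level, in the samples in which no signal from Cdkn2a or Cdkn2b could be read.

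The genes around the locus were then compared, as a list of all 50 genes on the array with a probe within 5 Mb of the Cdkn2a and Cdkn2b probes. Of the 50 genes, 38 were tested, and 3 were lower and 14 higher in the Pak1-/- cells. The median difference was 0.17 on the log2 scale against -0.05 over all tested probes. Dmrta1 and Acer2, counted as higher, passed the filter only through the Pak1-/- arrays, so the test is no independent support for them. With the filter on all 4 arrays 13 neighbours were higher. The count of lower genes was 5 without Pak1-/- replicate 2 or Pak1+/+ replicate 1 and 1 without Pak1+/+ replicate 2, and that of higher genes was 9 without Pak1-/- replicate 2. On the side of Mtap the nearest gene was the predicted gene Gm12605, 56.7 kb from Cdkn2a. It was above background on all 4 arrays, with log2 intensities of 8.76 and 8.83 in the Pak1-/- cells and 8.98 and 9.19 in the Pak1+/+ cells (difference -0.28, limma adjusted p = 0.066). The next genes on this side, Gm12603 at 190 kb and the interferon gene Ifne at 395 kb, were not above background on any array. On the other side Dmrta1, a DM domain gene 408 kb from Cdkn2b, had log2 intensities of 7.18 and 7.34 in the Pak1-/- cells, above background, and of 6.27 and 6.63 in the Pak1+/+ cells, not above it. It was at least 1.31-fold higher in the Pak1-/- cells (limma adjusted p = 0.010), but it passed the filter only through these arrays, so that the p is no independent support. Beyond it Zfp352 at 939 kb and Gm12633 at 1073 kb differed by -0.20 and -0.29 and were not past the threshold (limma adjusted p = 0.32 and 0.22).

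Of the neighbours past the threshold, those with the largest differences in each direction are given. Mllt3, a subunit of transcription elongation complexes, was higher in the Pak1-/- cells by 1.43, Plin2, which coats lipid droplets, by 1.28, and the interferon-like gene Gm13275 by 1.23 (limma adjusted p = 0.00044, 0.00048 and 0.0015). The 3 lower ones were Gm2690 by -1.24, Gm12680 by -0.50 and the interferon gene Ifna7 by -0.37 (limma adjusted p = 0.0065, 0.022 and 0.012). Interferon genes of this cluster are close copies of each other, so probes for Gm13275 and Ifna7 may read more than 1 of them. The probe of Gm13277, also counted as higher, lies next to that of Gm13275 (chr4:88417713-88417772 and chr4:88417650-88417709). The count of higher neighbours may thus hold 1 transcript more than once.

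**Figure D3:**
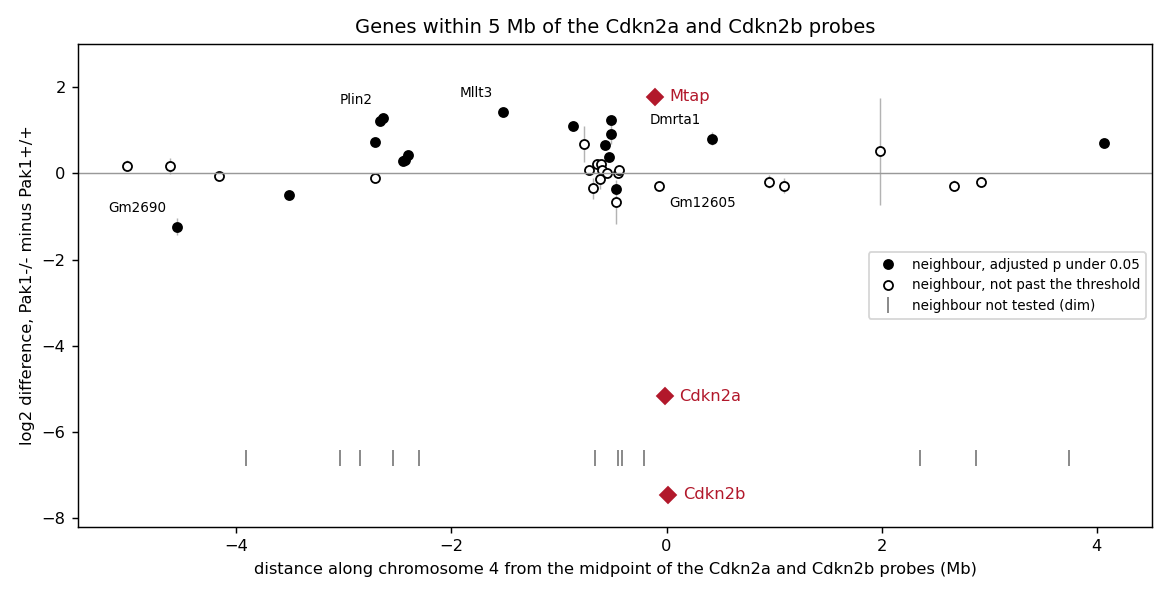
Log2 difference between Pak1-/- and Pak1+/+ cells (vertical axis, error bars are the SE of the fit) against distance along chromosome 4 in Mb from the midpoint of the Cdkn2a and Cdkn2b probes. Red diamonds are Cdkn2a, Cdkn2b and Mtap, filled and open circles are the 38 tested neighbours, and ticks mark neighbours that were too dim to test. Cdkn2a is drawn at -5.18, Cdkn2b at -7.45 and the tested neighbours between -1.24 and 1.43, as fitted differences, also where a group was at background.

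The stretches before the starts of these genes are shown because Cdkn2a and Cdkn2b changed side by side while Mtap did not follow. RefSeq promoter sequences (GRCm38.p6) were found for 7 of the 8 members, with 10 starts. The 250 bases before each start were searched on both strands for GGGCGG, the core of the SP1 site, for TGACGTCA, the cyclic AMP response element, for CACGTG, the E-box bound by Myc, and for TTTCGCGC, an E2F motif, and no matches overlapped in the stretches shown. The sequences run 5′ to 3′ on the reverse strand, on which the genes are read, and capitals mark the matches.
Cdkn2b, chr4:89311033-89311282: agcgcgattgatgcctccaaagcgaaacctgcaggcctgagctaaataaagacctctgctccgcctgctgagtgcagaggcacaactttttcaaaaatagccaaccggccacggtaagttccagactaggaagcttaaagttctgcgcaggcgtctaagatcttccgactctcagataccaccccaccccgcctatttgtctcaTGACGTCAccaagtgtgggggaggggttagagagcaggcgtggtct
Cdkn2a, start of the Arf transcript, chr4:89294620-89294869: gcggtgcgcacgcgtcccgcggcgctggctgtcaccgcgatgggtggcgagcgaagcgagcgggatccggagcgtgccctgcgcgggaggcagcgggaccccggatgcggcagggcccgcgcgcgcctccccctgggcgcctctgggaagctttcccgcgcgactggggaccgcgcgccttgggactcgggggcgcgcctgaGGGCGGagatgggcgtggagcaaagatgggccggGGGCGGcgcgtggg
Cdkn2a, start of the Ink4a transcript, chr4:89282193-89282442: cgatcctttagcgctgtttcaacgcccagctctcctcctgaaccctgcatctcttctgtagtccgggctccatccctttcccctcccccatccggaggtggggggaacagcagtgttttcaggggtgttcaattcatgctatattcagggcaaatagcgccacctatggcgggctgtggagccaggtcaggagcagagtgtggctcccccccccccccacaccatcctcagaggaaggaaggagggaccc

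The 3 stretches were unlike each other. The one before the Arf start held 40 CG dinucleotides, more than 98.7% of the 32851 promoters of the table, whose median was 6, and the GGGCGG core 2 times. The one before the Ink4a start held 7 CG dinucleotides and none of the motifs. The one before Cdkn2b held 12 CG dinucleotides and a single TGACGTCA. GGGCGG was found in 32.7% of all promoters, TGACGTCA in 1.55%, CACGTG in 6.0% and TTTCGCGC in 0.26%. The stretch before Mtap held 11 CG dinucleotides and none of the motifs. A match is a run of letters and not a measured site.

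The remaining INK4 genes were measured in both groups. Cdkn2c encodes p18Ink4c and lies on the same chromosome, 20.4 Mb from Cdkn2b. Its probe, A_55_P2074796 (chr4:109333508-109333567), had log2 intensities of 11.37 and 11.58 in the Pak1-/- cells and 11.28 and 11.26 in the Pak1+/+ cells. The difference of 0.20 (SE 0.10) was not past the threshold. Cdkn2d encodes p19Ink4d, and its probe A_55_P2022251 (chr9:21092934-21092993) gave 12.53 and 12.75 in the Pak1-/- cells and 13.17 and 13.16 in the Pak1+/+ cells. The difference of -0.52 (SE 0.10) was past the threshold, lower in the Pak1-/- cells, and was larger than the gap of either pair of arrays. Of the INK4 genes, then, Cdkn2a and Cdkn2b were at background in the Pak1-/- cells and Cdkn2c and Cdkn2d were well expressed in them.

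Of the CIP/KIP genes, Cdkn1a and Cdkn1b were measured in both groups. Cdkn1a encodes p21, a target of p53, and its main probe A_51_P363947 (chr17:29237377-29237436) is spotted 10 times on each array. It had log2 intensities of 15.04 and 15.33 in the Pak1-/- cells and 14.96 and 14.92 in the Pak1+/+ cells. The arrays of the groups did not overlap, but the Pak1-/- arrays lay further apart than the lower of them lay from the Pak1+/+ arrays. The difference of 0.24 (SE 0.12) was not past the threshold, though it passed without Pak1-/- replicate 1, at 0.39. The spots of this probe on a single array had an SD of 0.03 to 0.11, which covers spot noise within an array only. The second Cdkn1a probe, A_55_P1986282 (chr17:29227986-29228045), lists only 1 of the 2 transcripts and gave 11.44 and 11.63 against 11.52 and 11.59, a difference of -0.02 (SE 0.09). Its groups overlapped.

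Cdkn1b encodes p27, whose level is set largely by degradation through Skp2. Its main probe, A_55_P2026562 (chr6:134875424-134875483), had log2 intensities of 12.87 and 13.06 in the Pak1-/- cells and 13.41 and 13.36 in the Pak1+/+ cells. It was lower in the Pak1-/- cells by a difference of -0.42 (SE 0.09), past the threshold. Leaving out Pak1-/- replicate 1, Pak1+/+ replicate 1 or Pak1+/+ replicate 2 gave -0.33, -0.39 and -0.45 and none of these was past it. The dimmer probe, A_52_P673863 (chr6:134873606-134873665), lists no RefSeq transcript and gave 8.93 and 9.49 against 9.12 and 10.03. Its groups overlapped (difference -0.37, SE 0.36).

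Cdkn1c encodes p57, an imprinted inhibitor. Its probe, A_51_P339540 (chr7:150644753-150644812), had log2 intensities of 8.66 and 6.61 in the Pak1-/- cells and 6.55 and 6.79 in the Pak1+/+ cells. It was above background only on Pak1-/- replicate 1, at 401 scanned units against 79.3 to 105 on the other arrays, and was not tested. The high sample stood apart from its own replicate as much as from the other group. The genes of the imprinted region around it were taken as a list of 14, of which 13 were tested, 4 were lower, 4 higher and 5 not past the threshold (median -0.07). Only 2 were lower without Pak1-/- replicate 1, Pak1+/+ replicate 1 or Pak1+/+ replicate 2. Lower in the Pak1-/- cells were Tnfrsf23 by -1.54, Phlda2 by -1.14, Nap1l4 by -0.34 and Slc22a18 by -0.29. Higher were Cd81 by 0.84, Osbpl5 by 0.81, Tssc4 by 0.70 and Ascl2 by 0.37. The limma adjusted p-values of these 8 genes were 0.0012 to 0.028.

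The kinases and cyclins that the inhibitors act on, with the RB and E2F genes downstream, were taken as a list of 16 genes. Of the 14 tested, 6 were lower, 2 higher and 6 not past the threshold, with a median of -0.10 on the log2 scale. Cdk4, a target of the INK4 proteins, was not past the threshold, at 16.58 ± 0.005 and 16.58 ± 0.006 (SD, n = 2, limma adjusted p = 0.95). Its relative Cdk6 was lower in the Pak1-/- cells, at 8.02 and 7.87 against 8.58 and 8.48 (difference -0.58, limma adjusted p = 0.0060). Cyclin D1, Ccnd1, which activates both, had log2 intensities of 15.83 and 15.97 in the Pak1-/- cells and 17.31 and 17.18 in the Pak1+/+ cells. It showed the largest decrease of the list, -1.34 (SE 0.09, limma adjusted p = 0.00069).

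Of the genes that act after cyclin D, Rb1, the pocket protein that the CDK4 and CDK6 complexes phosphorylate, was higher in the Pak1-/- cells. Its probe gave 12.75 and 12.78 against 11.32 and 11.31, a difference of 1.45 (SE 0.07, limma adjusted p = 0.00026). Its relative Rbl1 fell by 1.11 in the Pak1-/- cells (limma adjusted p = 0.00072). Cdk2, the main target of the CIP/KIP proteins, was lower by -0.90 and Cdk1 by -1.08 (limma adjusted p = 0.00090 and 0.0010). E2f2 rose by 0.75 (limma adjusted p = 0.0013). Rb1 and Rbl1 thus differed in opposite directions between the same samples.

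**Figure D4:**
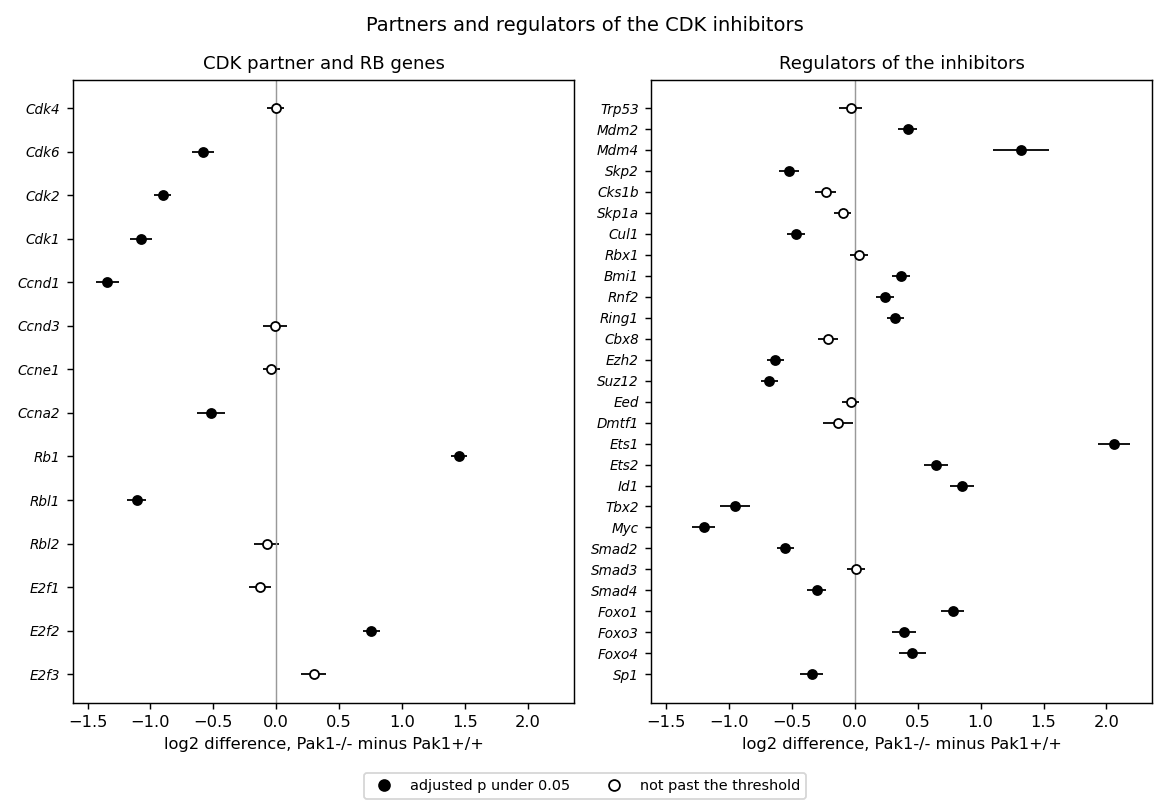
Log2 difference between Pak1-/- and Pak1+/+ cells (horizontal axis, bars are the SE of the fit) for the tested CDK partner and RB genes (left, 14 genes) and regulators of the inhibitors (right, 28 genes). Filled points have a limma adjusted p under 0.05. Both panels hold points on either side of 0, from -1.34 for Ccnd1 to 1.45 for Rb1 on the left and from -1.20 for Myc to 2.06 for Ets1 on the right.

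Genes known to control the inhibitors were taken as a list of 31. Of the 28 tested, 9 were lower, 11 higher and 8 not past the threshold, with a median of -0.03. Foxo4, counted as higher, passed the filter only through the Pak1-/- arrays, so the test is no independent support for it. With the filter on all 4 arrays 10 regulators were higher. The 11 higher genes became 7 without Pak1-/- replicate 2, 6 without Pak1+/+ replicate 1 and 7 without Pak1+/+ replicate 2. Trp53, which encodes p53 and drives Cdkn1a, had log2 intensities of 11.73 and 11.90 in the Pak1-/- cells and 11.91 and 11.79 in the Pak1+/+ cells, so that the groups overlapped (limma adjusted p = 0.79). Its antagonists Mdm2 and Mdm4 were higher in the Pak1-/- cells by 0.42 and 1.32 (limma adjusted p = 0.0099 and 0.0082). Dmtf1, an activator of Arf, differed by -0.14 (limma adjusted p = 0.38). Skp2, which marks p27 for degradation, was lower by -0.52 (limma adjusted p = 0.0061), in the same samples in which the main Cdkn1b probe was lower.

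Polycomb proteins keep the Cdkn2a and Cdkn2b region silent, and of their 8 genes in the list 3 were higher, 2 lower and 2 not past the threshold (Eed and Cbx8), while Cbx7 was at background. Bmi1, Ring1 and Rnf2, of the complex PRC1, were higher in the Pak1-/- cells by 0.37, 0.32 and 0.24 (limma adjusted p = 0.014, 0.016 and 0.043). Ezh2 and Suz12, of PRC2, were lower by -0.63 and -0.68 (limma adjusted p = 0.0025 and 0.0018). Among the transcription factors, Ets1, an activator of Ink4a, had log2 intensities of 12.71 and 12.41 in the Pak1-/- cells and 10.44 and 10.56 in the Pak1+/+ cells. Its difference of 2.06 (SE 0.13, limma adjusted p = 0.00053) was the largest of the list, and Id1, which opposes Ets factors, rose by 0.85 (limma adjusted p = 0.0023). Myc, a repressor of Cdkn2b and Cdkn1a, was lower by -1.20 and Tbx2, a repressor of Cdkn2a, by -0.96 (limma adjusted p = 0.00089 and 0.0034).

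Markers of cell types were read beside the locus. The luminal keratins Krt8 and Krt18, which mark luminal epithelium, were well above background on all 4 arrays, and they set most of the summed level of the 8 luminal markers, 19.9 in the Pak1-/- cells and 19.6 in the Pak1+/+ cells on the log2 scale. Of these 8, 3 were higher in the Pak1-/- cells (Krt8, Krt18 and Cdh1) and 0 were lower by limma adjusted p, with a median of -0.04. The 5 not past the threshold were Krt19, Esr1, Epcam, Elf5 and Prlr, the last 3 lower at an unadjusted limma p under 0.05. The keratin Krt19 was dim, at 6.94 and 7.05 in the Pak1-/- cells and 8.13 and 7.14 in the Pak1+/+ cells (difference -0.64, limma adjusted p = 0.17). Of the 7 basal markers, 6 were tested and all 6 were higher in the Pak1-/- cells, with a summed level of 16.5 to 16.6 against 14.2 to 14.3, and Myh11 was at background on all arrays. Fibroblast markers summed to 10.4 to 10.6 against 10.2 to 10.3, with Col3a1, Pdgfrb, Dcn and Lum at background on all arrays. Of the 3 tested, Col1a1 was higher in the Pak1-/- cells by 1.12 (limma adjusted p = 0.0051) and the other 2 were not past the threshold. Leukocyte markers summed to 15.7 to 16.2 against 15.4 to 15.5, a sum set mostly by Itgam (limma adjusted p = 0.11), with Lyz2 at background on all arrays. Of the 5 tested, Ptprc was lower in the Pak1-/- cells by -0.45 (limma adjusted p = 0.0056) and the other 4 were not past the threshold. Endothelial markers summed to 13.3 against 13.1 to 13.4. The part of these differences in the levels of the CDK inhibitors was not tested.

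Among the genes whose 4 values were most like those of the brightest Cdkn2b probe, by the Euclidean distance of the values centred on their mean, were Alkal2 (distance 0.37), Klk10 (0.63), Mtus2 (1.37) and Klk14 (1.40). Alkal2, which encodes a ligand of the receptor kinase Alk, had log2 intensities of 6.30 and 6.23 in the Pak1-/- cells and 13.55 and 13.37 in the Pak1+/+ cells. Alkal2 and Mtus2 were at background on both Pak1-/- arrays, as Cdkn2b was, whereas the kallikrein genes Klk10 and Klk14 were above it there. With 4 samples the distance says little beyond a large difference in one direction.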

How the data were processed

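Total RNA (0.5 ug a sample) was measured on 1-colour Agilent mouse arrays with 60-base probes, 2 arrays per genotype. Scanner output was deposited for each array as linear spot intensities from Feature Extraction 9.5.3.1 (build mm9), with no normalization across arrays. A log2 table that the authors made from these arrays by normexp correction and quantile normalization was used as an alternative (lowest r with the values computed here 0.9998).

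Intensities were background corrected with normexp (offset 50), put on the log2 scale, quantile normalized and averaged over the spots of a probe, without outlier flags, in limma 3.58.1 (R 4.3.3). The filter kept the 27229 of 39429 probes whose signal was well above background on 2 or more arrays. Genotypes were compared with lmFit and eBayes, two-sided, with Benjamini-Hochberg adjustment over all kept probes and a threshold of 0.05. The offset raises dim values, so differences of dim probes are understated. An exact permutation test of 2 against 2 samples cannot give p below 0.333. The number of arrays limits precision. The script was tested on simulated data.

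For a probe at background on both arrays of a genotype the ratio is a bound ("at least"). Each dim array was entered at the probe's own log2 value or at the floor of that array, whichever was higher, the floor being the lowest value among its probes well above background, and the mean of these was set against the mean of the brighter group.

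The members and lists were chosen with earlier results of these data known. Named genes were all member probes, Pak1, preset genes of each list, the largest differences past the threshold in each direction (3 per list), every Cdkn1c neighbour past it, the nearest genes around Cdkn2a and Cdkn2b (3 per side) and the 5 genes most like Cdkn2b, of which 1 is not reported here. Of 32334 probes with an accession, 26055 matched RefSeq names (GRCm38.p6). Alternatives were other corrections, scalings, filters and thresholds, the mean over probes, the deposited table, the replicate block and leaving out each array. Same-numbered arrays did not deviate together (r = -0.028), so the numbers were not taken as pairs. All arrays were on 1 slide.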

Additional observations from a re-analysis of the deposited data

How the results depend on the processing

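Cdkn2c and Cdkn2d kept their direction and their side of the adjusted p threshold under the alternatives run, except that Cdkn2d fell short of the 2-fold requirement. Cdkn2a, Cdkn2b and Mtap did so too, which the choice of members, and for Cdkn2a and Cdkn2b the filter, favoured, so it is no sign of stability. Sizes against arrays at background moved with the setting. The log2 difference of Cdkn2b was -10.38 with the processed signals, -11.38 with no offset and -6.27 as the mean over both probes, and that of Cdkn2a was -8.45, -6.94 and -3.57. The bounds were at least 305-fold for Cdkn2b and 81.2-fold for Cdkn2a with the processed signals, 194-fold and 51.9-fold with no offset, and 93.2-fold and 25.2-fold with cyclic loess. With the filter on all 4 arrays, or with at least a 2-fold change required, 2 members were lower. The first setting drops the Cdkn2a and Cdkn2b probes by construction, and the second drops Cdkn2d and Cdkn1b. Cyclic loess gave 2 higher members, since Cdkn1a then passed at 0.36, and a Pak1 difference of 0.27. With the 2-fold requirement 3 partners were lower and 1 higher, 1 regulator lower and 2 higher, 1 chromosome 4 neighbour lower and 5 higher, and 2 Cdkn1c neighbours lower and 0 higher, by limma as in the other counts (at adjusted p alone 4 were higher).

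Leaving out 1 array at a time, where the lone array of a group is assumed to vary like the other group, gave 3 to 4 lower and 1 to 2 higher members, 7 to 8 lower and 6 to 8 higher regulators, 1 to 5 lower and 9 to 12 higher chromosome 4 neighbours, and 2 to 5 lower and 3 to 4 higher Cdkn1c neighbours. The second Cdkn1a probe turned sign with cyclic loess (0.071), in the deposited table (0.00083) and among the fits without 1 array (-0.11 to 0.073). The second Cdkn1b probe ranged from -0.82 to 0.091 in those fits. The mean over both probes took Cdkn1b to -0.39, not past the threshold. With the replicate block 4 members were lower and 1 higher, and 13211 probes were past the threshold in place of 14132, and it changed no call of a member. The causes of these changes were not tested beyond what is stated. Levels under background have no order.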
